A study of Mus musculus with 20 samples.

Results

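The genes of the NRF2 antioxidant response were followed on 20 expression arrays of mouse erythroid progenitors with and without the hormone erythropoietin (Epo). The list held 9 genes: the transcription factor gene Nfe2l2, its inhibitor gene Keap1, and the target genes Srxn1, Txnrd1, Gclm, Gclc, Nqo1, Hmox1 and G6pdx. It was chosen by pathway with results of these arrays known, and Srxn1 heads it by its measured difference between the series at 1 to 7 h. Only probe sets annotated to 1 gene were used. Of the 9 genes, 8 had at least 1 such probe set, 17 in all, and these 8 were measured among 18193 genes. G6pdx, for the enzyme at the entry of the pentose phosphate pathway, had no probe set of its own and is not analysed here. Where a gene had several probe sets, the one with the highest mean over the 20 arrays stands for it, and all 4 probe sets of Srxn1 were compared.

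The cells were Ter119-negative erythroid colony-forming progenitors (CFU-E), obtained from livers of BALB/c embryos at day 13.5 by magnetic removal of other cells. Cells given Epo (0.5 U/ml) were measured on 12 arrays, at each hour of 0 to 8 h and then at 14, 19 and 24 h. Cells left without Epo were measured on 8 arrays, at each hour of 0 to 7 h. Each treatment and time had 1 array, the number of arrays limits the precision, and the labels do not state separate cultures. The spread behind each p-value is the scatter of the hours around the fit. It holds any change with time that the fit leaves out, and it may in part be technical. The labels give the treatment before 0 h in different ways, once as starvation for 1 h after sorting in both series and once as cultivation with Epo. All values are deposited log2 signals, and a difference of 1 is a factor of 2.

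NRF2, the product of Nfe2l2, is a transcription factor that pairs with small MAF proteins. KEAP1 binds it and hands it to a CUL3 ubiquitin ligase for degradation, and oxidants or electrophiles that modify KEAP1 let NRF2 accumulate. Its targets carry antioxidant response elements and serve the thioredoxin and glutathione systems, the supply of NADPH and the breakdown of heme. Red cell precursors handle large amounts of heme and iron, and their peroxiredoxins depend on these systems.

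Of the 9 genes, 7 had a promoter window in the RefSeq table for GRCm38.p6 (250 bases before to 50 after each annotated start, 9 windows). They are shown because the genes share the pathway but not the time course described below. The letters TGACNNNGC, the core of the antioxidant response element, were searched on both strands, together with TGAGNNNGC, the other common form of that core, TGAGTCA, the site of AP-1 factors, and TTCNNNGAA, the site of STAT factors that act downstream of the Epo receptor. TGACNNNGC was present in 5 of the 9 windows, from 5 genes (Nfe2l2, Srxn1, Gclm, Txnrd1 and G6pdx), against 12.39% of all 32851 windows. In Srxn1 that match lay past the start. The capitals mark the matches, and in Gclm and Txnrd1 they are on the reverse strand.
Srxn1, TGAGTCA at both places, chr2:152105412-152105495, plus strand, bases -112 to -29 from the start: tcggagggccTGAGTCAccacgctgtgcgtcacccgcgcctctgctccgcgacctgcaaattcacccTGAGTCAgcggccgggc
Gclm, TGACNNNGC, chr3:122245407-122245447, plus strand: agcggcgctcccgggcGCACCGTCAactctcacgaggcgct
Txnrd1, TGACNNNGC, chr10:82859098-82859138, plus strand: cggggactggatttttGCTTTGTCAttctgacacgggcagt
Nfe2l2, TGACNNNGC, chr2:75704879-75704913, minus strand: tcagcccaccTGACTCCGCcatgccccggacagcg
TGAGTCA was found in 1 of the 9 windows, that of Srxn1, against 5.2% of all windows. It stood there at -102 to -96 and at -45 to -39, and the second copy runs on into the letters GC, so that it overlaps a match of TGAGNNNGC. TGAGNNNGC was likewise found in the Srxn1 window alone among the 9, against 17.65% of all windows. A further match of TGAGNNNGC in that window lay at -158 to -150 on the reverse strand, outside the stretch printed. TTCNNNGAA was found in 2 of the 9 windows, both of Txnrd1, against 8.3% of all windows. These matches are letters in a window and describe no binding.

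Srxn1 codes for sulfiredoxin, which reduces peroxiredoxins that peroxide has overoxidised. It had a signal of 5.92 at 0 h in both series. With Epo it reached 6.89 at 1 h, 8.07 at 2 h, 9.15 at 3 h and 9.24 at 4 h, peaked at 9.28 at 5 h, and stood at 9.13, 9.07 and 9.03 at 6, 7 and 8 h. Without Epo it lay at 5.72 at 1 h, then at 5.52, 5.59, 5.54, 5.52 and 5.60 at 2 to 6 h and at 5.73 at 7 h. The 7 arrays with Epo at 1 to 7 h all lay above the 7 without, with no overlap. The highest array with Epo was 10.3-fold above that at 0 h, and no array without Epo exceeded its 0 h value. The mean difference over the 7 matched hours was 3.09 (SD 0.94, n = 7 pairs), a factor of 8.50, and the same when each series was first set against its own 0 h array. This difference helped to choose the gene and is given as a description, with no test. Over all genes, 6.56% had every array with Epo above every array without at these hours.

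The 4 probe sets of Srxn1 gave the same order of the series (the plot of the Srxn1 probe sets shows each array). The probe set kept, 1451680_at, had a mean of 7.31 over the 20 arrays and the next, 1426875_s_at, one of 6.89. At 1 to 7 h, 1426875_s_at ranged over 7.25 to 9.13 with Epo and 4.75 to 5.34 without. Probe set 1425351_at ranged over 5.87 to 7.56 with Epo and 4.21 to 4.79 without. Probe set 1419942_at ranged over 5.60 to 6.09 with Epo and 5.20 to 5.44 without. All 4 were higher with Epo in 7 of 7 pairs without overlap, but the size differed. Before, at 0 h, the difference was 0.0018 for the kept probe set, -0.11 for 1426875_s_at, -0.74 for 1425351_at and -0.40 for 1419942_at. The mean differences at 1 to 7 h were 3.54 for 1426875_s_at, 2.60 for 1425351_at and 0.52 for 1419942_at. Over the 20 arrays the other 3 probe sets followed the kept one with Pearson's r of 0.974, 0.972 and 0.912 in the same order, all measured in the same RNA.

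**Figure D1:**
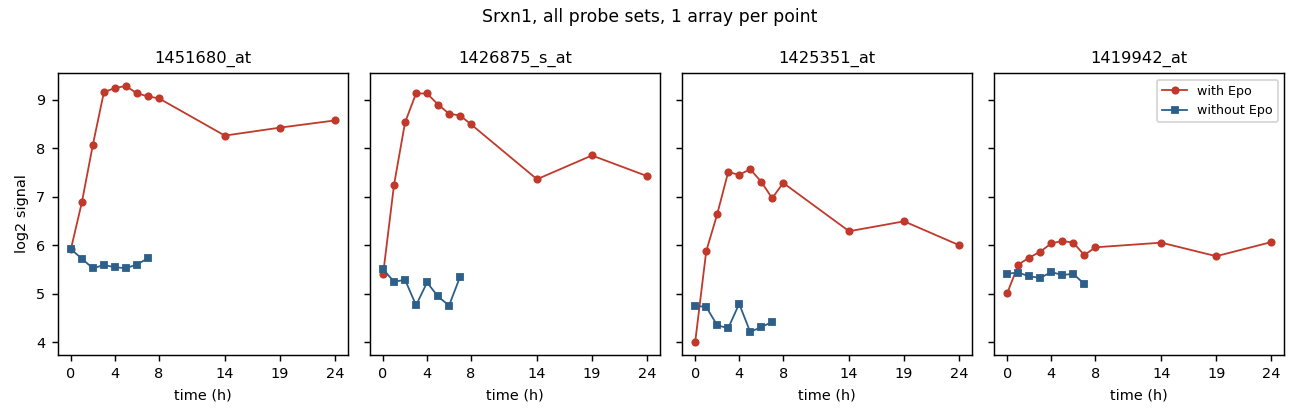
Deposited log2 signal (y axis) of the 4 Srxn1 probe sets, 1 panel each, against hours (x axis), with 1 point per array: 12 arrays with Epo and 8 without. In each panel the arrays with Epo at 1 to 7 h lie above all arrays without Epo at those hours, by a mean of 3.09 in the first panel and 0.52 in the fourth.

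The genes most like Srxn1 were picked from all 18192 others. Their closeness is therefore no measure of how well the list followed Srxn1. By Pearson's r over the 20 arrays, which share the 2 time series, 3 of the 5 most alike were Fhl1 (0.953), for a LIM domain protein, Cnih4 (0.945), for a cornichon family protein, and Msmo1 (0.943), for a sterol synthesis enzyme. A probe set annotated to a miRNA locus was also among the 5, and its value is not given. Fhl1 averaged 8.02 with Epo and 4.60 without at 1 to 7 h. Among the other 7 genes of the response, r with Srxn1 was 0.741 for Gclm, which ranked 582 of 18192, and 0.686 for Nqo1, which ranked 954. It was 0.486 for Hmox1 (rank 3216) and 0.270 for Txnrd1 (rank 6534). It was negative for Gclc (-0.309), Keap1 (-0.528) and Nfe2l2 (-0.639).

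The other genes were tested for the Epo effect at 1 to 7 h with limma, with the hour as a block and adjusted p-values over all 18193 genes. The response did not move one way: of the 7 genes tested, 2 were higher with Epo, 3 were lower and 2 passed in neither direction. Over all genes, 18.2% were called higher and 20.2% lower, 38.4% in all, so that a call by itself was common on these arrays. The series also differed before this window: at 0 h, Nqo1 was at least 0.5 higher in the series with Epo, as were 9.25% of all genes, and Keap1, Txnrd1 and Gclc were at least 0.5 lower, as were 8.53% of all genes. Anything that differed between the series besides Epo cannot be told apart from Epo. With each gene set against its own 0 h arrays, limma called 0 of the 7 genes (2 of 7 at an unadjusted p under 0.05), with or without a linear drift. Over all genes the same subtraction left 1 call without the drift and 155 with it.

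The regulators were lower with Epo. Nfe2l2 had a lowest, median and highest signal of 8.46, 8.59 and 8.80 with Epo and of 8.38, 9.25 and 9.62 without, over the 7 arrays of 1 to 7 h. The ranges overlapped, and the array without Epo at 1 h was the lowest of all 14. The mean difference was -0.60 ± 0.13 (SE; adjusted p = 0.0040), lower in 6 of 7 pairs, against -0.49 at 0 h and -0.12 from each series' own 0 h. Keap1 had 7.84, 8.11 and 8.25 with Epo and 8.16, 8.43 and 9.002 without. Its mean difference was -0.47 ± 0.12 (SE; adjusted p = 0.010), lower in 6 of 7 pairs. The Keap1 gap at 0 h was -0.61, and from each series' own 0 h the difference changed sign, to 0.14. A second Keap1 probe set also differed by -0.47, and a second Nfe2l2 probe set, at 4.71 on average, by -1.07. At 0 h that second Nfe2l2 probe set differed by 0.75, so the 2 Nfe2l2 probe sets had opposite signs before the window.

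**Figure D2:**
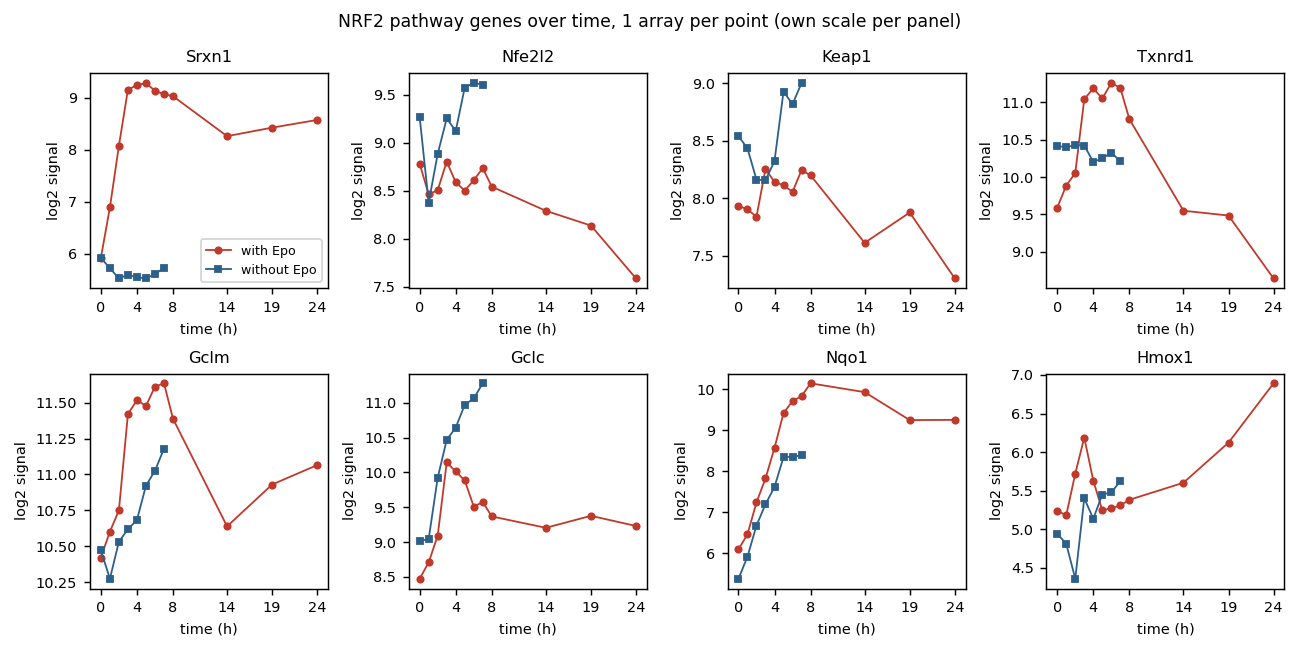
Deposited log2 signal (y axis, its own range in each panel) of the 8 measured genes against hours (x axis), with 1 point per array, with Epo at 0 to 24 h and without Epo at 0 to 7 h. Srxn1 has separate series from 1 h, while both series of Nqo1 climb side by side and Gclc without Epo passes 11 at 6 and 7 h.

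Gclm and Gclc code for the 2 subunits of glutamate-cysteine ligase, the first step of glutathione synthesis. Their differences between the series had opposite signs. Gclm, the modifier subunit, had a lowest, median and highest signal of 10.60, 11.48 and 11.63 with Epo and of 10.27, 10.68 and 11.18 without. It was higher with Epo in 7 of 7 pairs, by 0.54 ± 0.08 (SE; adjusted p = 0.00035), after a difference of -0.051 at 0 h, and by 0.59 from each series' own 0 h. Its second probe set differed by 0.17 and was higher in 4 of 7 pairs. Gclc, the catalytic subunit, had 8.71, 9.57 and 10.14 with Epo and 9.04, 10.64 and 11.28 without. It was lower with Epo in 7 of 7 pairs, at -0.92 ± 0.16 (SE; adjusted p = 0.00095), against -0.54 at 0 h and -0.38 from each series' own 0 h. Its second probe set was also lower in 7 of 7 pairs, at -0.76. Both Gclm and Gclc had overlapping ranges, and each stood higher at 7 h than at 0 h with and without Epo.

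Nqo1, for a quinone reductase widely used as a reporter of NRF2 activity, had a lowest, median and highest signal of 6.46, 8.56 and 9.83 with Epo and of 5.91, 7.61 and 8.38 without. It was higher with Epo in 7 of 7 pairs, by 0.94 ± 0.13 (SE; adjusted p = 0.00017), but already by 0.72 at 0 h. Without the hour as a block the Nqo1 call was lost (adjusted p = 0.17). Txnrd1, the cytosolic thioredoxin reductase, had 9.89, 11.05 and 11.26 with Epo and 10.20, 10.33 and 10.43 without. Its difference of 0.49 ± 0.19 (SE) missed the threshold (adjusted p = 0.059). It was below 0 at 1 and 2 h (-0.51 and -0.37) and between 0.62 and 0.99 at 3 to 7 h. Leaving out the 1 h pair gave 0.66 (adjusted p = 0.0053) and leaving out the 2 h pair gave 0.64 (adjusted p = 0.017). Leaving out any other hour gave adjusted p-values of 0.12 to 0.16. With the mean of all probe sets the difference was 0.38 (adjusted p = 0.19), and with 0 h as a further pair 0.33 (adjusted p = 0.26). Probe sets 1424486_a_at and 1424487_x_at of Txnrd1 differed by 0.35 and 0.29. Txnrd1 had started 0.83 lower in the series with Epo, so that from each series' own 0 h its difference was 1.32. Hmox1, for the heme oxygenase that opens the heme ring, had 5.18, 5.31 and 6.19 with Epo and 4.36, 5.40 and 5.62 without, a difference of 0.33 ± 0.18 (SE; adjusted p = 0.19).

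The other probe sets of these genes, 9 in all with those of Srxn1, had the same sign of the mean difference as the one kept in 9 of 9 cases. Of the 8 genes, Srxn1 alone had series that did not overlap at 1 to 7 h, and no gene of the 8 lay below throughout, as 7.31% of all genes did. Higher in 7 of 7 pairs were Srxn1, Gclm and Nqo1, and lower in 7 of 7 was Gclc, where 14.1% and 15.2% of all genes were so.

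The gap between the series changed over 1 to 7 h in several genes, as tested by the slope of the 7 matched differences per hour. Of the 7 genes tested, 2 had a rising difference and 3 a falling one, where 6.44% and 6.34% of all genes were called (12.8% in all). The difference of Txnrd1 rose by 0.26 ± 0.05 per hour (SE; adjusted p = 0.0066) and that of Nqo1 by 0.17 ± 0.04 (adjusted p = 0.0084). For Nqo1 it was 0.55 at 1 h and 1.44 at 7 h. The difference fell by 0.23 ± 0.05 per hour in Gclc (adjusted p = 0.014), by 0.22 ± 0.06 in Hmox1 (adjusted p = 0.026) and by 0.17 ± 0.04 in Nfe2l2 (adjusted p = 0.022). The Gclc difference was -0.34 at 1 h and -1.71 at 7 h, and the Hmox1 difference was 1.36 at 2 h and -0.31 at 7 h. For Srxn1 the slope was 0.31 ± 0.12 per hour, with differences of 1.17 at 1 h, 2.55 at 2 h and 3.34 to 3.76 from 3 h on. These same differences helped to choose the gene, so the slope is given with no test. Keap1 (-0.088 ± 0.051, adjusted p = 0.32) and Gclm (0.031 ± 0.042, adjusted p = 0.74) did not pass. As separate lines with no hour block, Gclc (adjusted p = 0.080), Nqo1 (adjusted p = 0.092) and Hmox1 (adjusted p = 0.055) lost the call. With 0 h as a further pair the Srxn1 slope was 0.46, likewise with no test. The Txnrd1 call was lost without 1 h (adjusted p = 0.069), that of Nfe2l2 without 1 h (0.16) or 6 h (0.074), and that of Gclc without 6 h (0.058) or 7 h (0.077). The Hmox1 call was lost without 2, 5, 6 or 7 h (adjusted p = 0.089, 0.0502, 0.072 and 0.099).

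**Figure D3:**
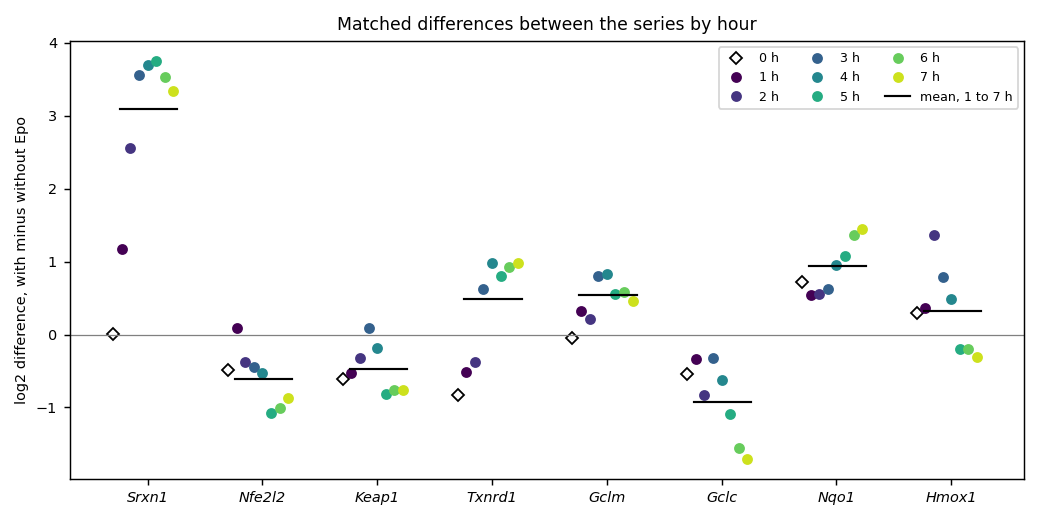
Difference between the array with Epo and the array without at the same hour (y axis, log2) for the 8 measured genes (x axis), with 1 point per pair coloured by hour, an open diamond for 0 h and a bar at the mean of 1 to 7 h. Srxn1 lies at 0 at 0 h and between 3.34 and 3.76 from 3 h to 7 h, Txnrd1 crosses 0 between 2 and 3 h, and Gclc stays below 0 and ends at -1.71.

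Most of the response also climbed without Epo. Over 0 to 7 h in the series without Epo, 5 of the 7 genes tested rose and 0 fell, where 13.3% of all genes were called as rising and 15.4% as falling (28.7% in all). Nqo1 stood at 8.38 at 7 h and 5.37 at 0 h, a factor of 8.06, with a slope of 0.46 ± 0.04 per hour (SE; adjusted p = 1.6e-05). Gclc stood at 11.28 at 7 h and 9.01 at 0 h, a factor of 4.81, with a slope of 0.35 ± 0.03 (adjusted p = 2.2e-05). Gclm rose by 0.12 ± 0.02 per hour (adjusted p = 0.00027). Hmox1 (0.13 ± 0.04, adjusted p = 0.022) and Nfe2l2 (0.13 ± 0.04, adjusted p = 0.031) passed with all hours, but Nfe2l2 lost the call without 1, 2, 5, 6 or 7 h (adjusted p of 0.054 to 0.091) and Hmox1 without 1, 6 or 7 h (0.053 to 0.081). Keap1 (0.091 ± 0.035, adjusted p = 0.077) and Txnrd1 (-0.030 ± 0.015, adjusted p = 0.18) did not pass. For Srxn1 the slope was -0.023 ± 0.025 per hour. It is given with no test, since the arrays without Epo also helped to choose the gene.

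With Epo over 0 to 7 h, 3 of the 7 genes tested rose and 0 fell, where 2.21% of all genes were called as rising and 5.88% as falling (8.09% in all). Nqo1 had the steepest slope of these, 0.59 ± 0.03 per hour (SE; adjusted p = 2.4e-07), and its highest array, at 8 h, was 16.6-fold above that at 0 h. Txnrd1 rose by 0.25 ± 0.04 per hour (adjusted p = 0.00045) and Gclm by 0.19 ± 0.02 (adjusted p = 0.00020). Gclc missed the threshold (0.17 ± 0.05, adjusted p = 0.074), with its peak of 10.14 at 3 h, and it passed without 3 h (adjusted p = 0.016) or 7 h (adjusted p = 0.037). Keap1 (0.043 ± 0.024, adjusted p = 0.36), Hmox1 (-0.012 ± 0.045, adjusted p = 0.94) and Nfe2l2 (0.0023 ± 0.024, adjusted p = 0.98) did not pass. For Srxn1 the slope was 0.44 ± 0.08, given with no test.

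**Figure D4:**
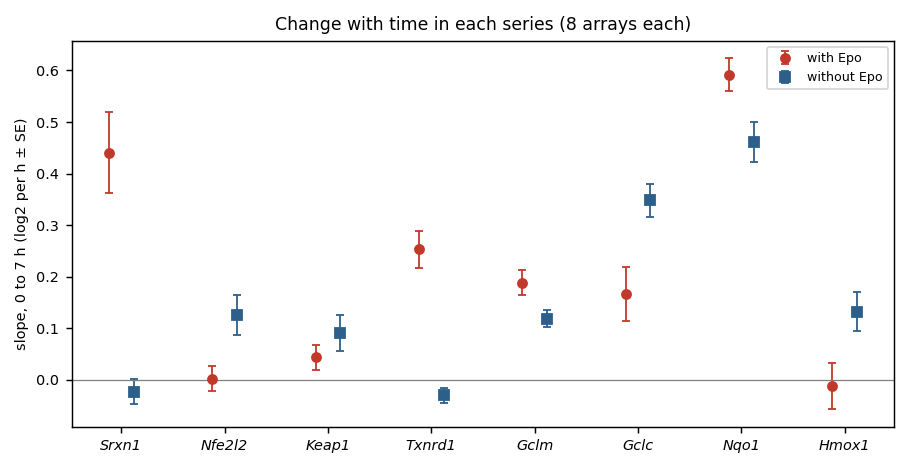
Slope of the log2 signal per hour over 0 to 7 h (y axis) with Epo and without Epo for the 8 measured genes, each fitted over 8 arrays, with bars for the standard error. Nqo1 climbs in both series (0.59 with Epo and 0.46 without), Gclc climbs more without Epo (0.17 with and 0.35 without), and Srxn1 is near 0 without Epo (0.44 with and -0.023 without).

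Several genes rose between 2 and 3 h in the series with Epo. The signal at 3 h was higher than at 2 h by 1.08 for Srxn1, 1.05 for Gclc, 0.99 for Txnrd1, 0.67 for Gclm and 0.59 for Nqo1. Besides Srxn1, which was chosen by its difference at these hours, Gclc, Txnrd1, Gclm and Nqo1 rose by at least 0.5, as did 4.94% of all genes. Of these, Gclc rose by at least 1, as did 0.214% of all genes. For Srxn1 and Nqo1 the rise was part of a longer climb and no separate step. Between 1 and 2 h with Epo, Srxn1 had gone from 6.89 to 8.07 and Nqo1 from 6.46 to 7.23. Without Epo, 3 of 8 genes rose by at least 0.5 between the same hours, as did 4.61% of all genes. These were Hmox1 by 1.04, Gclc by 0.54 and Nqo1 by 0.52. The interval and the sizes were chosen after the values were seen, each rise rests on 1 array at each hour, and it has no test. By the kept probe sets with Epo, Gclc was highest at 3 h, Srxn1 at 5 h, Txnrd1 at 6 h, Gclm at 7 h, Nqo1 at 8 h and Hmox1 at 24 h. Each peak is 1 array, and some were close: Srxn1 read 9.24 at 4 h and 9.28 at 5 h, Gclm 11.61 at 6 h and 11.63 at 7 h. Other probe sets peaked elsewhere: Srxn1 1426875_s_at at 3 h, Txnrd1 1424486_a_at at 5 h and 1424487_x_at at 3 h, Gclm 1439050_at at 6 h. Srxn1 1425351_at and 1419942_at kept 5 h, and Gclc 1455959_s_at kept 3 h.

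The late arrays with Epo (14, 19 and 24 h) were set against those of 1 to 8 h. Of the 7 genes tested, 1 was higher late and 3 were lower, where 17.6% and 18.5% of all genes were called (36.2% in all). Txnrd1 had 9.55, 9.48 and 8.64 at 14, 19 and 24 h, with a mean of 9.22 ± 0.51 (SD, n = 3) late and 10.81 ± 0.54 (n = 8) early. It was lower by a factor of 3.00 (-1.58 ± 0.29 SE; adjusted p = 0.00073), and all 3 late arrays lay below the 9.59 of 0 h. Nfe2l2 had 8.29, 8.14 and 7.59 late, with means of 8.00 ± 0.37 late and 8.59 ± 0.12 early (-0.59 ± 0.15; adjusted p = 0.0059). With the mean of its probe sets the Nfe2l2 difference was -0.092 (adjusted p = 0.62). Keap1 had 7.61, 7.88 and 7.30, with means of 7.60 ± 0.29 late and 8.09 ± 0.15 early (-0.50 ± 0.14; adjusted p = 0.014), a call lost without 24 h (adjusted p = 0.088) and after quantile normalization (adjusted p = 0.10).

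Hmox1 was the gene that was higher late, with 5.60, 6.12 and 6.89 at 14, 19 and 24 h. Its means were 6.21 ± 0.65 (SD, n = 3) late and 5.49 ± 0.34 (n = 8) early, a difference of 0.71 ± 0.25 (SE; adjusted p = 0.034). Without the 24 h array the difference was 0.37 (adjusted p = 0.28), and without 19 h the call was lost as well (adjusted p = 0.069). Nqo1 stood at 9.93, 9.24 and 9.25 late (adjusted p = 0.33), Gclc at 9.20, 9.38 and 9.23 (adjusted p = 0.41) and Gclm at 10.64, 10.93 and 11.07 (adjusted p = 0.12). Srxn1 had 8.26, 8.42 and 8.57 late, with means of 8.42 ± 0.16 late and 8.73 ± 0.84 early (-0.32 ± 0.40). Most of the early arrays helped to choose Srxn1, so its late difference is given with no test. Against the arrays of 6 to 8 h alone, Gclm was lower late (-0.67, adjusted p = 0.019). The Srxn1 difference was then -0.66, likewise with no test. All 3 late Srxn1 values stayed above every array without Epo, which end at 7 h. The summed linear signal of hepatocyte markers was 433 to 2495 late with Epo and 7461 to 23147 at 1 to 7 h with Epo, and that of megakaryocyte markers was 427 to 510 and 204 to 252 on the same arrays. The sums were also higher late for macrophage markers (170 to 216 late and 131 to 153 at 1 to 7 h), granulocyte markers (593 to 765 and 363 to 480) and erythroid markers (23934 to 32928 and 12393 to 23482). The part of these cells in the late differences was not tested.

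Further lists, 5 in all, set these genes in their pathway, and some genes are in more than 1 of them. They were chosen with earlier results of these arrays known. Each is described by its counts and its median, beside the median of 0.025 for the Epo effect over all genes. The shares of all genes called higher and lower, against which these counts stand, were 18.2% and 20.2% for the Epo effect, 6.44% and 6.34% for its change, 13.3% and 15.4% over time without Epo, 2.21% and 5.88% over time with Epo, and 17.6% and 18.5% late against early. Of 12 regulators and partners of NRF2, 1 was higher with Epo, 5 were lower and 6 did not pass (median -0.27). Gsk3b, for a kinase that marks NRF2 for degradation, was lower, at -1.39 ± 0.14 (SE; adjusted p = 2.5e-05), after -1.11 at 0 h. Btrc, for the ubiquitin ligase adaptor that reads this mark, was lower, at -1.35 ± 0.15 (adjusted p = 3.3e-05), and Crebbp, for a coactivator, at -0.47 ± 0.12 (adjusted p = 0.011), after -0.23 and -0.43 at 0 h. Rbx1, for the RING subunit of CUL3 ligases, was higher by 0.48 ± 0.10 (adjusted p = 0.0030), after 0.25 at 0 h. Bach1, for the heme-sensitive repressor that competes with NRF2 for its sites, climbed without Epo by 0.36 ± 0.04 per hour (adjusted p = 4.6e-05), to 9.67 at 7 h. In the series with Epo it stood at 9.02 at 3 h and 8.44 at 7 h, and the Bach1 difference between the series fell by 0.38 ± 0.05 per hour (adjusted p = 0.00048). Without Epo, 6 of the 12 regulators rose and 0 fell, Mafg, a small MAF gene, by 0.23 ± 0.04 per hour (adjusted p = 0.0011). With Epo over 0 to 7 h, limma called 0 of the 12. Late against early, 7 of the 12 were higher and 2 lower, Btrc by 0.91 ± 0.17 (adjusted p = 0.0011) and Cul3 at -0.86 ± 0.23 (adjusted p = 0.0087).

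Of 33 other known NRF2 target genes, 27 were measured. With Epo 10 were higher, 1 was lower and 16 did not pass (median 0.20). Mgst1, for a microsomal glutathione transferase, was higher by 2.60 ± 0.13 (SE; adjusted p = 7.3e-07), but by 2.89 at 0 h. Gsta3, a glutathione transferase gene, was higher by 1.28 ± 0.14 (adjusted p = 3.9e-05), but by 2.05 at 0 h, and Pir, for the iron protein pirin, by 0.84 ± 0.09 (adjusted p = 3.4e-05), but by 1.08 at 0 h. Me1, for malic enzyme, had a time course nearer to that of Srxn1. It stood at 4.97, 5.21, 7.19 and 8.29 at 0, 1, 2 and 3 h with Epo and between 7.15 and 7.62 at 4 to 7 h, against 4.83 at 0 h and 5.26 to 5.65 at 1 to 7 h without Epo. Its difference was 1.76 ± 0.28 (adjusted p = 0.00041), or 1.61 from each series' own 0 h. Over time without Epo 6 of the 27 rose and 11 fell, among them Mgst1 at -0.33 ± 0.03 per hour (adjusted p = 4.5e-05) and Gsta4, another glutathione transferase gene, at -0.25 ± 0.03 (adjusted p = 9.7e-05). With Epo 8 rose and 4 fell, among them Mgst1 at -0.40 ± 0.03 per hour (adjusted p = 9.2e-07) and Gsta3 at -0.30 ± 0.04 (adjusted p = 8.7e-05). Late against early 6 were higher and 10 lower, Mgst1 at -3.07 ± 0.51 (adjusted p = 0.00036) and Abcc1, for a transporter of glutathione conjugates, at -2.03 ± 0.33 (adjusted p = 0.00031).

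Mgst1 and Gsta3 are also expressed in liver, and hepatocyte markers lay the same way. Of 12 hepatocyte markers 11 were measured, 9 were higher with Epo and 0 lower, with a median difference of 1.05 at 1 to 7 h and 1.46 at 0 h. Their summed linear signal was 7461 to 23147 with Epo and 5194 to 12726 without at 1 to 7 h, 34833 with Epo and 16544 without at 0 h. The part of hepatocyte RNA in the members' results was not tested. Of 12 macrophage markers 0 were called by limma (sums of 131 to 153 with Epo and 132 to 160 without), with Adgre1 at 2.66 to 3.28 and Cd163 at 2.01 to 2.61 over the 20 arrays. Csf1r, added after its values were seen, read 4.71 to 6.32, with its highest value at 24 h with Epo. Of 10 granulocyte markers 1 was higher and 2 lower, with sums of 363 to 480 with Epo and 379 to 1195 without at 1 to 7 h, and of 651 with Epo and 2018 without at 0 h. Of 6 megakaryocyte markers 1 was higher and 1 lower, with sums of 204 to 252 with Epo and 209 to 236 without at 1 to 7 h. Of 12 erythroid markers 10 were measured, 0 higher and 6 lower with Epo, with a median difference of -0.35 at 1 to 7 h and -0.27 already at 0 h. Their defining factors Gata1 (9.81 to 11.4) and Klf1 (11.3 to 12.8) were present on every array, while the probe set of the globin gene Hba-a1 read 3.19 to 3.80. In a mixture of cells, fewer cells of a type and less RNA per cell cannot be told apart.

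**Figure D5:**
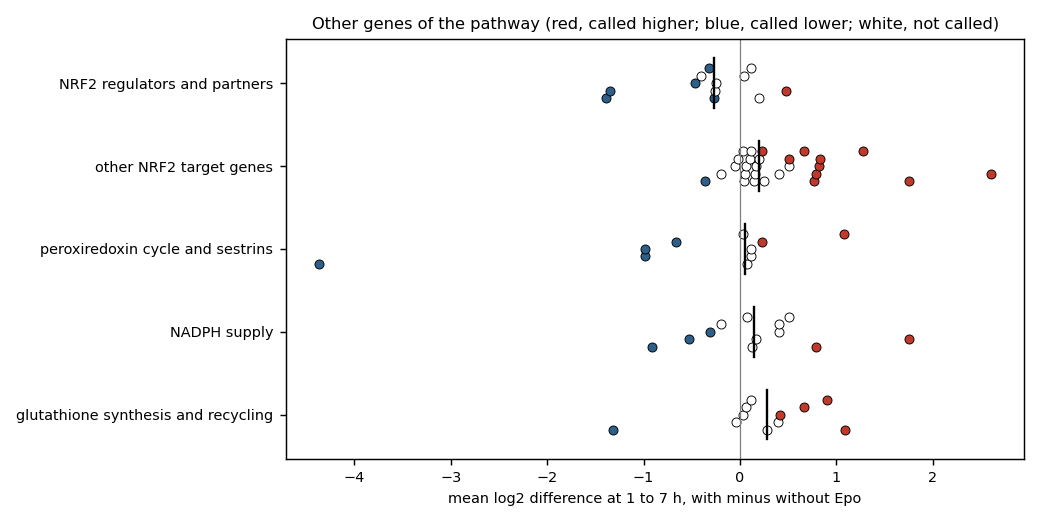
Mean difference with Epo minus without at 1 to 7 h (x axis, log2) for each measured gene of the 5 further lists (rows), with 1 point per gene, red where called higher, blue where called lower and white where not called at an adjusted p of 0.05, and a black line at each list's median. The list medians run from -0.27 for the regulators to 0.28 for the glutathione genes.

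Of 13 genes of the peroxiredoxin cycle and the sestrins, the setting in which sulfiredoxin works, 10 were measured. With Epo 2 were higher and 4 lower (median 0.051). Prdx4, for the peroxiredoxin of the endoplasmic reticulum, was higher by 1.08 ± 0.08 (SE; adjusted p = 3.0e-06), after 0.88 at 0 h. Txnip, for a protein that binds and inhibits thioredoxin, was lower, at -4.36 ± 0.16 (adjusted p = 2.4e-07), mitochondrial Txnrd2 at -0.98 ± 0.12 (adjusted p = 6.9e-05) and the sestrin gene Sesn2 at -0.98 ± 0.24 (adjusted p = 0.0073). At 0 h these 3 differed by 0.086, -0.19 and -0.073 in that order. Prdx1, Prdx5 and Prdx6 had no probe set of their own. Over time without Epo 1 rose and 2 fell, Prdx4 at -0.11 ± 0.02 per hour (adjusted p = 0.00032) and mitochondrial thioredoxin Txn2 at -0.095 ± 0.021 (adjusted p = 0.0043). With Epo 2 rose and 1 fell, Sesn2 by 0.22 ± 0.03 (adjusted p = 0.00054) and Txnip at -0.17 ± 0.04 (adjusted p = 0.012). Late against early 6 were higher and 2 lower, and Sesn2 (1.83 ± 0.27, adjusted p = 0.00015) and Txnip (1.66 ± 0.29, adjusted p = 0.00053) were among the higher.

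All 12 genes of NADPH supply were measured. At 1 to 7 h with Epo 2 were higher and 3 lower (median 0.15): Me1, above, Idh1 by 0.79 ± 0.14 (SE; adjusted p = 0.00083, after 1.04 at 0 h), Idh2 at -0.91 ± 0.10 (adjusted p = 2.5e-05, after -0.36) and Rpia at -0.53 ± 0.07 (adjusted p = 0.00018, after -0.48) were among them. Idh1 and Idh2 code for the cytosolic and the mitochondrial isocitrate dehydrogenase and Rpia for a pentose phosphate isomerase. The gap between the series rose with time in 6 of the 12 and fell in 0. For Pgd, the pentose phosphate enzyme after G6pdx, the difference rose by 0.38 ± 0.04 per hour (adjusted p = 0.00016). Pgd stood at 11.46 with Epo and 9.89 without at 7 h, against 10.70 with Epo and 11.10 without at 0 h. Mthfd1, a folate enzyme gene, had a slope of the difference of 0.37 ± 0.04 (adjusted p = 0.00018), and Taldo1, for transaldolase, from the target list, one of 0.32 ± 0.04 (adjusted p = 0.00047). Without Epo 1 rose and 6 fell, Mthfd1 at -0.34 ± 0.03 per hour (adjusted p = 1.5e-05) and Pgd at -0.20 ± 0.02 (adjusted p = 2.2e-05). With Epo 4 rose and 0 fell, Pgd by 0.13 ± 0.02 (adjusted p = 0.0037) and Mthfd2 by 0.13 ± 0.02 (adjusted p = 0.0012). Late against early 2 were higher and 6 lower, Mthfd1 at -1.66 ± 0.24 (adjusted p = 0.00012) and Pgd at -1.25 ± 0.24 (adjusted p = 0.0011).

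Of 12 further genes of glutathione synthesis and recycling, 11 were measured. With Epo 4 were higher and 1 was lower (median 0.28). Ggct, for an enzyme that cleaves gamma-glutamyl peptides, was higher by 1.09 ± 0.18 (SE; adjusted p = 0.00062) and differed by 0.021 at 0 h. Gpx4, the lipid peroxide reductase, was higher by 0.91 ± 0.07 (adjusted p = 2.7e-06) after 0.55 at 0 h, and glutathione reductase, Gsr, by 0.67 ± 0.22 (adjusted p = 0.030) after -0.55 at 0 h. Slc3a2, for the shared heavy chain of amino acid transporters that include the cystine carrier, was lower, at -1.32 ± 0.18 (adjusted p = 0.00017), after -0.26 at 0 h. The gap rose with time in 3 of the 11 and fell in 0, by 0.52 ± 0.06 per hour for Chac1, which degrades glutathione (adjusted p = 0.00031), and by 0.32 ± 0.05 for Gsr (adjusted p = 0.0013). Without Epo 2 rose and 3 fell, Slc3a2 by 0.29 ± 0.06 per hour (adjusted p = 0.0018) and Ggct at -0.37 ± 0.03 (adjusted p = 2.1e-05). With Epo 2 rose and 1 fell, and Chac1 (0.44 ± 0.08, adjusted p = 0.0020) and Gsr (0.18 ± 0.02, adjusted p = 0.00013) were those that rose. Late against early 6 were higher and 2 lower, Glrx, for glutaredoxin, by 1.32 ± 0.20 (adjusted p = 0.00017) and Ggct at -2.63 ± 0.34 (adjusted p = 5.9e-05). Among the target genes the gap rose in 6 of 27 and fell in 1, among the regulators in 0 of 12 and 1 of 12, and among the peroxiredoxin cycle genes limma called 0 of 10 in either direction.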

How the data were processed

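RNA was measured on 20 arrays, 12 with Epo and 8 without. The authors deposited log2 signals, judged so from their values (1.37 to 14.6). Per the labels' protocols, RNA was isolated with a column kit and labelled as biotinylated cRNA. The software that summarised and scaled the arrays was not given in the sources used here.

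The table held 45101 probe sets, of which 34945 named 1 gene in the platform annotation, 932 several and 9211 none here, and 13 control probe sets that name a gene were left out. The probe set with the highest mean represented each of 18193 genes. Of the 34945, 34741 were found in a RefSeq table of GRCm38.p6, and no symbol changed. The median over genes was 4.85 to 4.92 on the arrays with Epo and 4.86 to 4.91 on those without at 1 to 7 h.

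Fits used limma 3.58.1 in R 4.3.3 (linear models, empirical Bayes with trend), with Benjamini-Hochberg adjustment over all genes at 0.05. The Epo effect used the 14 arrays of 1 to 7 h with the hour as a block, since the labels give both series the same hours. Other fits were the slope of the 7 matched differences, the slope within each series over 0 to 7 h, and 14 to 24 h against 1 to 8 h with Epo. Tables used pandas 2.3.3 and numpy 2.4.6 under Python 3.11.15, and plots matplotlib 3.10.9.

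The members and lists were chosen with earlier results of these data known. Named genes were the members, up to 4 called genes of each list with the largest Epo effect and up to 2 in each other comparison, and the 5 genes most like Srxn1, of which 3 are given and the closest is not reported here. Several genes, among them Pgd, Me1, Prdx1 and Prdx6, are in 2 lists, so the lists are not separate sets. Bach1 and Pgd are given with further hours to show their course.

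On simulated data of 18193 genes with 200 changed, log2 changes of 1 were recovered with their sign in 98.5% of genes for the Epo effect, 16.4% for the change of the effect, 80.6% for time without Epo, 76.1% for time with Epo and 97% for late against early. Changes of 0.5 were called in 70.1%, 0%, 20.9%, 6% and 28.4% in the same order. For the slopes, the size is the whole change over the hours fitted, not the change per hour. The simulated arrays had independent noise around a flat mean, unlike these time series, so the shares hold for that setting alone. Alternatives were other scalings, filters, probe set rules, variance models, uses of the 0 h arrays and time scales, and leaving out each hour.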

Additional observations from a re-analysis of the deposited data

Results flagged for a closer look

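For 5 genes the difference between the series changed over 1 to 7 h, by a test of that change itself (limma, slope of the 7 matched differences, Benjamini-Hochberg over all genes). The slope of the difference per hour was 0.26 for Txnrd1, 0.17 for Nqo1, -0.23 for Gclc, -0.22 for Hmox1 and -0.17 for Nfe2l2, with adjusted p-values of 0.0066, 0.0084, 0.014, 0.026 and 0.022 in that order. Over all genes 12.8% were called. Each of the 5 calls was lost under at least 1 other setting: Txnrd1 without 1 h (adjusted p = 0.069), Nqo1 with no hour block (0.092), Gclc without 6 h (0.058), Hmox1 without 2 h (0.089) and Nfe2l2 without 1 h (0.16). For each of the 8 members, the level without Epo at 0 to 7 h and the matched difference at 1 to 7 h were examined for a value far from the others. Of these 16 sets 0 had one, where chance gives about 1 in 20. The levels with Epo were not examined by themselves.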

How the results depend on the processing

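Members' results were recomputed under 600 combinations of result and setting, of which 524 were counted as kept. Results with a p-value had to keep their direction and their side of the threshold. The Srxn1 Epo effect had to keep its direction and move by less than the SD of its matched differences. The Srxn1 slope with Epo had to keep its direction and move by less than its SE. The other Srxn1 results were counted by p-values that are not given. For the Epo effect at 1 to 7 h, 6981 genes (5 of the 7 members tested) were called, against 1 (0 members; 1388 genes at an unadjusted p under 0.05) from each series' own 0 h and 155 (0 members; 2998 genes) when a drift was allowed; the drift was added after seeing the data, and under both settings Keap1 was at 0.14 instead of -0.47. Centring each array on its median gave 2389 genes higher and 4476 lower, against 3312 and 3669. For the late comparison it gave 2202 and 3738, against 3207 and 3372, and for time with Epo quantile normalization gave 550 and 878, against 402 and 1070. The slope of the difference called 2324 genes, and 1323 to 2244 when 1 hour was left out. It called 5 members, 2 to 5 with 1 hour left out, and Gclc, Nqo1 and Hmox1 lost the call with no replicate block. Hmox1 also lost it with 0 h as a further pair (adjusted p = 0.093), and Nfe2l2 with the mean of all probe sets (adjusted p = 0.079). The Srxn1 slope was 0.46 with the 0 h pair, given with no test. Without Epo 5 members were called, 3 to 5 with 1 hour left out and 3 on the square root of time, and the Srxn1 slope was 0.0042 without 0 h. With Epo 1472 genes were called, 915 to 1444 with 1 hour left out. There the Nfe2l2 slope was -0.0028 after median centring, -0.018 on the square root of time, -0.0038 over 0 to 8 h and -0.013 to 0.0077 with 1 hour left out. The Hmox1 slope was 0.00061 after quantile normalization, 0.033 on the square root of time and -0.039 to 0.0049 with 1 hour left out. Late against early called 6579 genes, 2896 against 6 to 8 h alone, 4378 without 2 h and 24 h (chosen after seeing the data) and 4232 to 7255 with 1 late hour left out. It called 4 members, 2 to 4 with 1 late hour left out, the lowest without 24 h, and Nqo1 was at -0.42 against 6 to 8 h. The cause of these changes was not tested. The hour pairs the series by label, and the fit with no replicate block left 4 members called for the Epo effect, without Nqo1.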
